A study of Mus musculus with 6 samples.

Results

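The 8 genes described here encode 5 receptors of the CD28 family (Cd28, Ctla4, Icos, Pdcd1 and Btla) and 3 ligands (Cd80, Cd86 and Cd274). They were selected by gene name among the 21362 genes of the deposited tables, and all 8 were found there, and each averaged at least 1 CPM (counts-per-million of a total adjusted for composition by TMM). RNA sequencing covered 6 mouse libraries that the labels call CD4+ T cells, in a series about sorafenib, an inhibitor of several kinases, and regulatory T cells. The labels state a number and a cell type for each library and no treatment, strain, age or source animal, so no library was put in a group and no group comparison was made. The libraries are named 1 to 6 after their titles. Total counts ran from 32435799 to 36316162.

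T cells need a signal from a co-stimulatory receptor beside the one from their antigen receptor. CD28 gives that signal when it binds CD80 or CD86 on an antigen-presenting cell, and CTLA-4 binds the same ligands more tightly, so it competes with CD28 and can strip the ligands from the presenting cell. Regulatory T cells carry CTLA-4 all the time, while conventional T cells gain it on activation. ICOS is a further co-stimulator, induced by activation, that binds its own ligand. PD-1, encoded by Pdcd1, and BTLA carry inhibitory motifs that recruit phosphatases. PD-1 binds PD-L1, encoded by Cd274, and BTLA binds HVEM, encoded by Tnfrsf14.

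Promoter sequence is shown for 3 genes. Ctla4 had the widest range of the family and Cd274 the narrowest. Pdcd1, like Btla, was a receptor gene that was higher in the libraries where Ctla4 was lower. Each run is the 250 bases before the annotated RefSeq gene start in build GRCm38.p6, which is not the GRCm39 build named in the submitters' processing notes. The RefSeq promoter table held 5 of the 8 genes, and the windows of Btla and Cd80 are not printed. Capitals mark the letters GGAAA or their reverse complement TTTCC, the core recognised by NFAT factors, which calcium signalling activates in T cells.
Ctla4, chr1:60908775-60909024, plus strand: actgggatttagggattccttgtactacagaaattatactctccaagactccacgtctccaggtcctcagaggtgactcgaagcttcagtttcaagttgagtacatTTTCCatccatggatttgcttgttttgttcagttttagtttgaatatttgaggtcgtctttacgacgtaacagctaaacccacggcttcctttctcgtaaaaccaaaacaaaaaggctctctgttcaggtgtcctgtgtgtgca
Pdcd1, chr1:94052554-94052803, minus strand: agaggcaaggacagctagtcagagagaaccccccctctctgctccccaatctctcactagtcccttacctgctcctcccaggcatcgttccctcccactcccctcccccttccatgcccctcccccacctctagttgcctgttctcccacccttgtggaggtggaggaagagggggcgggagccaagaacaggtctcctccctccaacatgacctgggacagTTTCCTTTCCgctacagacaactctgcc
Cd274, chr19:29367188-29367437, plus strand: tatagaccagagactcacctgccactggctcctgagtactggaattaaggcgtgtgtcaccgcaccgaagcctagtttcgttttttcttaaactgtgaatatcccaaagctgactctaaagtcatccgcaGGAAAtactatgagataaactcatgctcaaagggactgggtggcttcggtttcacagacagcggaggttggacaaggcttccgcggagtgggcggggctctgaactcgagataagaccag

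The core was present once in the Ctla4 window, starting 144 bases before the gene start, once in the Cd274 window, starting 120 bases before it, and in 2 adjoining copies in the Pdcd1 window, starting 28 and 23 bases before it. It was absent from the windows of Btla and Cd80. Of 32851 promoter windows of the same length 55.6% held it, so its presence does not set Ctla4, Cd274 and Pdcd1 apart. The AP-1 motif TGANTCA, which reads the same on both strands, was in 6.75% of windows and in that of Cd80 alone among the 5, starting 42 bases before the gene start. The STAT motif TTCNNNGAA, also the same on both strands, was in 7.02% of windows and in 0 of the 5, and the TATA box letters TATAAA on either strand were in 12.4% and in 0 of the 5. Bases made of G or C were 42.4% of the Ctla4 window, 60.4% of the Pdcd1 window and 50.4% of the Cd274 window. In GENCODE M21, an annotation of build GRCm38, Cd28, Ctla4 and Icos are consecutive protein-coding genes on chromosome 1, and Pdcd1 lies elsewhere on that chromosome. Cd274 and Pdcd1lg2 are neighbours on chromosome 19, and Btla, Cd80 and Cd86 lie apart from one another on chromosome 16.

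Ctla4 was the most abundant gene of the family by FPKM (the authors' unit, scaled by gene length and library total, which allows levels of different genes to be compared per length). It had 685, 700.0 and 701 FPKM in libraries 1, 2 and 3, and 387, 377 and 392 FPKM in libraries 4, 5 and 6. On that scale it ranked between 105 and 145 among all 21362 genes. In CPM it had 1526, 1559 and 1548 in libraries 1, 2 and 3, and 791, 771 and 809 in libraries 4, 5 and 6. Libraries 1, 2 and 3 were thus each above libraries 4, 5 and 6, and the 95% counting intervals of the highest, 1545 to 1572 CPM in library 2, and of the lowest, 762 to 780.3 CPM in library 5, were far apart. The range, the highest library over the lowest on the log2 CPM scale, was 2.02-fold. It was 1.86-fold with plain total counts or FPKM and 1.97-fold without library 5, so whether Ctla4 reached 2-fold depended on the scaling and on that library. In bulk RNA, fewer cells carrying a transcript and less of it per cell cannot be told apart.

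Cd28, the co-stimulator that competes with CTLA-4 for ligand, came next in abundance, with 115 to 178 FPKM. It had 848, 786 and 783 CPM in libraries 1, 2 and 3, and 524, 510.2 and 507 CPM in libraries 4, 5 and 6. As for Ctla4, libraries 1, 2 and 3 were all above the others, with a smaller range of 1.67-fold. Icos, the activation-induced co-stimulator, had 307, 306 and 285 CPM in libraries 1, 2 and 3, and 183, 178 and 179 CPM in libraries 4, 5 and 6. Its range of 1.72-fold lay between those of Cd28 and Ctla4, and its levels were 42.8 to 68.0 FPKM. The higher values of these 3 neighbouring genes were in libraries 1, 2 and 3 under each of the 5 settings compared. These were TMM with a prior count of 2 or of 0.5, DESeq2 size factors, total counts and FPKM. FPKM is counts over gene length and the same totals, so it is no separate scaling from total counts. Nor is the change of prior count a scaling.

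The inhibitory receptors Pdcd1 and Btla were higher in the other libraries. Pdcd1, which encodes PD-1, had 15.4, 15.5 and 14.6 CPM in libraries 1, 2 and 3, and 19.2, 19.5 and 20.6 CPM in libraries 4, 5 and 6. The counting interval of its lowest library was 13.4 to 15.9 CPM and that of its highest was 19.1 to 22.1 CPM. Btla, the receptor for HVEM, had 88.3, 93.5 and 86.5 CPM in libraries 1, 2 and 3, and 117, 121 and 118 CPM in libraries 4, 5 and 6. Libraries 4, 5 and 6 were above libraries 1, 2 and 3 for both genes under each of the 5 settings. The ranges were small, 1.41-fold for Pdcd1 and 1.39-fold for Btla, or 1.505-fold for each with plain total counts. Per length, Pdcd1 was the least abundant of the 5 receptor genes, at 7.30 to 11.0 FPKM, and Btla had 17.2 to 25.9 FPKM.

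**Figure D1:**
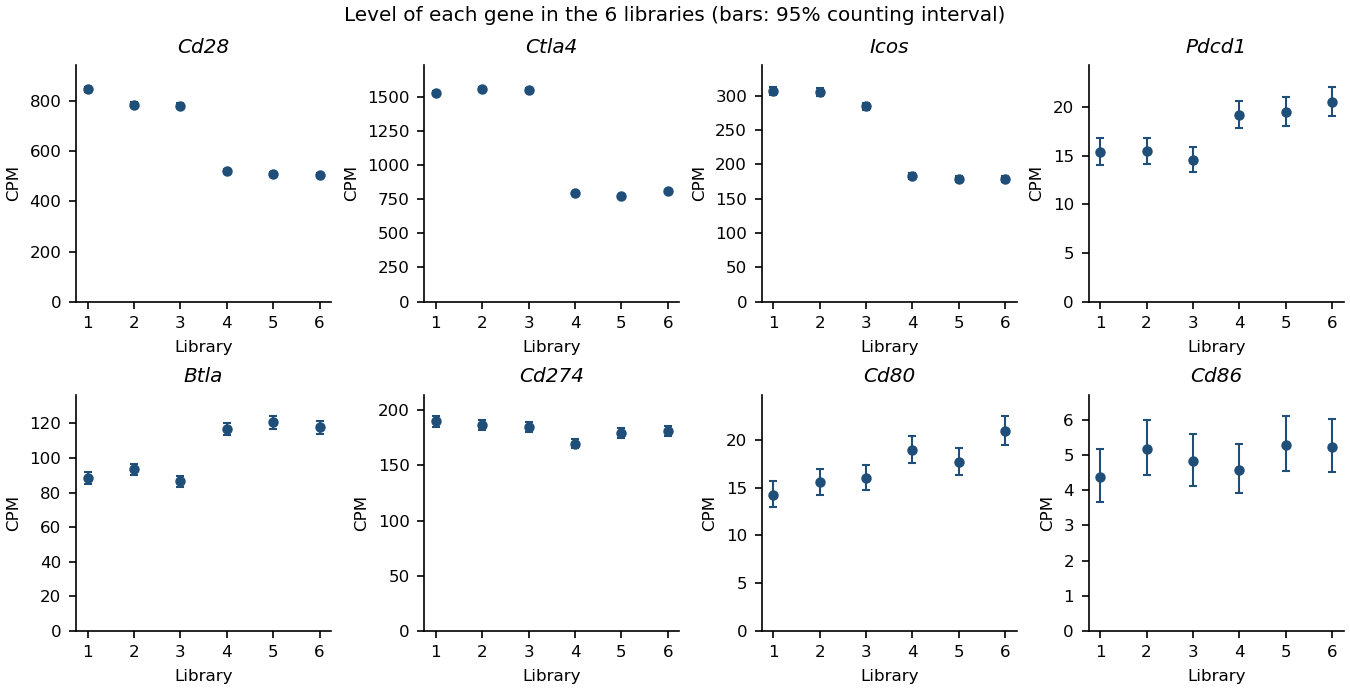
Level in CPM (vertical axes, from 0) of each of the 8 genes in libraries 1 to 6 (horizontal axes), with bars for the 95% counting interval. Ctla4, Cd28 and Icos were higher in libraries 1, 2 and 3, Pdcd1, Btla and Cd80 in libraries 4, 5 and 6, and Cd274 and Cd86 varied least.

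Among the ligands, Cd274, which encodes PD-L1, was the most abundant and the steadiest gene of the family. It had 189.9, 186, 185, 169, 179.6 and 181 CPM in libraries 1 to 6. Its range of 1.12-fold was smaller than that of most genes, since 12.9% of all measured genes had a smaller one. It was highest in library 1 with the main scaling and in library 5 with plain total counts or FPKM, where its range was 1.06-fold, so the order of its libraries depended on the scaling. At 43.3 to 45.8 FPKM it made up between 85.3% and 89.5% of the summed FPKM of the 3 ligand genes. Cd80, a ligand of both CD28 and CTLA-4, had 14.3, 15.6 and 16.0 CPM in libraries 1, 2 and 3, and 19.0, 17.7 and 21.0 CPM in libraries 4, 5 and 6. Its range was 1.47-fold, and the interval of library 1, 13.0 to 15.7 CPM, did not meet that of library 6, 19.5 to 22.5 CPM. The interval of library 3, 14.7 to 17.4 CPM, overlapped that of library 5, 16.4 to 19.2 CPM.

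Cd86, the other ligand shared by CD28 and CTLA-4, was the scarcest of the 8 genes, with 136 to 186 counts per library. It had 4.38, 5.17, 4.82, 4.59, 5.29 and 5.23 CPM in libraries 1 to 6. The interval of its lowest library, 3.67 to 5.18 CPM, overlapped that of its highest, 4.55 to 6.11 CPM, so a difference between libraries was not detectable at this depth. The intervals of the highest and lowest library lay apart for the other 7 genes, as they did for 85% of all measured genes. Cd80 exceeded Cd86 in every library, by 2.34-fold in library 2 to 3.22-fold in library 4 on the FPKM scale.

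CD80 and CD86 are best known from B cells, dendritic cells and macrophages, so marker genes of those cells were read beside them. The 5 B cell markers reported summed to between 4.99 CPM in library 1 and 8.596 CPM in library 4, with 3 of them at a mean of at least 1 CPM. Cd79b, a chain of the B cell receptor and the most abundant of these markers, had 1.83 to 3.797 CPM. All 3 measured B cell markers, Cd79a, Cd79b and Cd22, ranged 2-fold or more at these low levels. Of the 7 dendritic cell markers, 2 reached 1 CPM, and the 5 with a row in the count table summed to between 4.27 CPM in library 3 and 7.24 CPM in library 5. Their most abundant gene was Zbtb46, a transcription factor of classical dendritic cells, at 2.61 to 5.45 CPM, while Xcr1 and Siglech had reads in library 5 alone and Clec9a and Cd209a were not analysed here. Both measured genes, Flt3 and Zbtb46, ranged 2-fold or more. Of the 8 macrophage markers, only Cd68, a lysosomal glycoprotein gene, reached 1 CPM, at 8.68 to 12.1 CPM, and C1qa had reads in library 6 alone. The B cell sum was 4.99, 5.38 and 5.68 CPM in libraries 1, 2 and 3, and 8.596, 7.82 and 8.32 CPM in libraries 4, 5 and 6. The dendritic cell sum was 4.57, 4.48 and 4.27 CPM in libraries 1, 2 and 3, and 5.696, 7.24 and 6.97 CPM in libraries 4, 5 and 6. Both sums were thus higher in libraries 4, 5 and 6, as Cd80 was. In the B cell sum Cd79a, Cd79b and Cd22 followed that order, while the scarcer Pax5 and Ms4a1 did not. Pax5 had 0.805 CPM in library 1 and 0.632 CPM in library 5, and Ms4a1 was lowest in library 5, at 0.172 CPM. In the dendritic cell sum Zbtb46 followed that order, with 2.61 to 3.04 CPM in libraries 1, 2 and 3 and 4.80 to 5.45 CPM in the others. Flt3 did not, since it was highest in library 1, at 1.74 CPM, and lowest in library 4, at 0.765 CPM. The sum of the macrophage markers was lowest in library 5, at 9.08 CPM, and highest in library 3, at 13.0 CPM. The part of such cells in the Cd80 and Cd86 levels was not tested. The 6 helper T cell markers, by contrast, summed to between 1489.9 and 1591 CPM, with Cd4 the most abundant and Cd3g the most variable, at 1.29-fold. Of 4 killer T cell and NK cell markers, Cd8b1 alone reached 1 CPM, at 8.15 to 9.57 CPM.

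Ratios within a library do not depend on how libraries are scaled. Ctla4 over Cd28, by FPKM, was 3.84, 4.23 and 4.22 in libraries 1, 2 and 3, and 3.22, 3.22 and 3.41 in libraries 4, 5 and 6. Ctla4 exceeded Cd28 in every library, and the ratio varied 1.31-fold, with an interval of 4.17 to 4.29 in library 2 and of 3.16 to 3.28 in library 4. Icos over Cd28 was far steadier, from 0.368 in library 5 to 0.410 in library 2. Btla over Cd28 was 0.0974, 0.111 and 0.103 in libraries 1, 2 and 3, and 0.208, 0.221 and 0.217 in libraries 4, 5 and 6, a range of 2.27-fold. Pdcd1 over Cd28 ranged 2.23-fold, from 0.0428 in library 1 to 0.0957 in library 6. Both ratios of an inhibitory receptor to Cd28 thus spanned more than either gene did alone, since Cd28 was higher in libraries 1, 2 and 3 and the inhibitory receptors in libraries 4, 5 and 6. Pdcd1 over Btla had a range of 1.08-fold, with overlapping intervals of 0.375 to 0.442 in its lowest library and 0.407 to 0.476 in its highest.

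**Figure D2:**
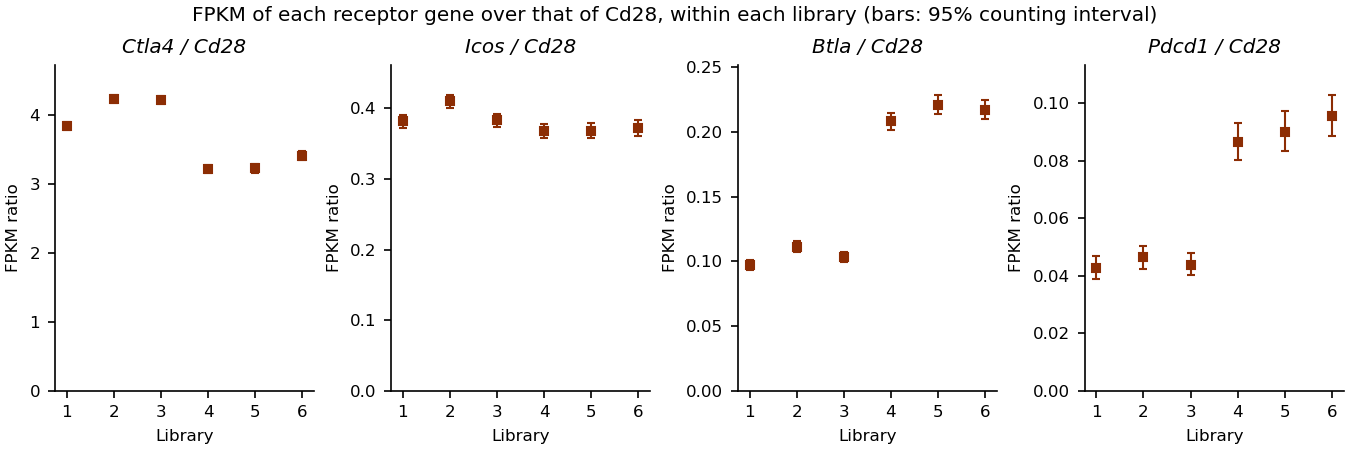
FPKM of Ctla4, Icos, Btla and Pdcd1 divided by that of Cd28 (vertical axes, from 0) in libraries 1 to 6 (horizontal axes), with 95% counting intervals. Ctla4 over Cd28 lay between 3.22 and 4.23, Icos over Cd28 between 0.368 and 0.410, and the Btla and Pdcd1 ratios ranged 2.27-fold and 2.23-fold.

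As shares of the summed FPKM of the 5 receptor genes, Ctla4 took between 65.7% and 73.4%, Cd28 between 17.3% and 20.5%, and Icos between 6.66% and 7.53%. Btla took between 1.80% and 4.51% and Pdcd1 between 0.764% and 1.88%. The sum itself ran from 573 to 959 FPKM, while that of the 3 ligands ran from 49.5 to 53.5 FPKM. The pool of family transcripts was therefore mostly Ctla4 in all 6 libraries.

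Of the 8 genes, 1 ranged 2-fold or more, namely Ctla4, beside 1204 of 11516 measured genes, which is 10.5%. At 1.5-fold or more there were 3, namely Ctla4, Icos and Cd28, beside 27.6% of all measured genes. Both counts are close to what these shares give for 8 genes. With plain total counts or FPKM, Pdcd1, Btla and Cd80 also reached 1.5-fold, which made 6 of the 8 genes, beside 30.7% of measured genes with total counts and 28.4% with FPKM. The median range of the 8 genes was 1.44-fold, and that of all measured genes 1.29-fold. Of all measured genes, 89.9% had a smaller range than Ctla4, 83.3% than Icos and 81.6% than Cd28.

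**Figure D3:**
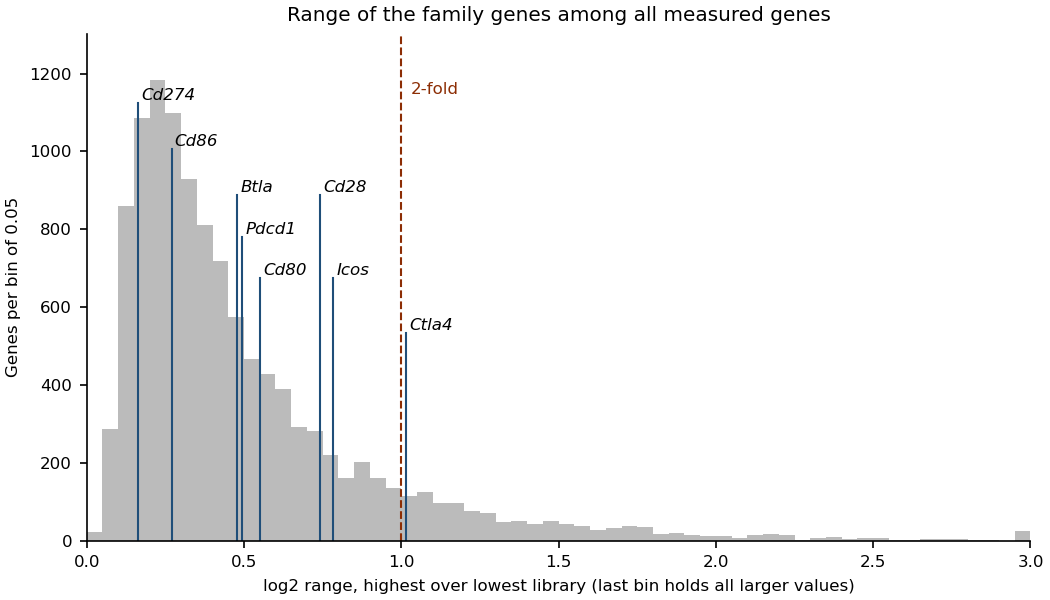
Histogram of the log2 range, highest over lowest library (horizontal axis), for the 11516 measured genes (vertical axis, genes per bin), with lines for the 8 family genes whose heights carry no value. Ctla4 lay just past the dashed 2-fold line, and Cd274 at 1.12-fold was the narrowest of the 8.

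The deviations of each gene from its own median showed which members resembled each other over the 6 libraries. The root mean square difference of these log2 deviations was 0.06 between Cd28 and Icos, 0.13 between Icos and Ctla4 and 0.17 between Cd28 and Ctla4. It was 0.05 between Pdcd1 and Btla, 0.09 between Pdcd1 and Cd80, and 0.69 between Ctla4 and Btla, the least alike pair among those 6 genes. Such a difference tends to be small between genes that both range little. Its values over all gene pairs are not given here, so these differences do not set the family apart. The search covered 8208 other genes averaging 10 CPM or more, with 162 unnamed gene models and antigen receptor segments left out, and the closest to Ctla4 was Atxn7l2, at a difference of 0.01, with 19.9 to 41.0 CPM. Next came H2-Q10, a class I histocompatibility gene whose reads may be split with near-identical copies, C3, a complement gene, Pik3ap1, an adaptor of PI3-kinase, and Tnfrsf9, the gene of the co-stimulator 4-1BB. Their differences from Ctla4 were 0.04 to 0.05, and each was higher in libraries 1, 2 and 3. Tnfrsf9 was similar to Ctla4 in abundance too, with 824 to 1763 CPM.

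The closest genes to Cd28 were Slc30a4, a zinc transporter gene, and Zfp395, a zinc finger gene, both at a difference of 0.03. Icos was closest to Bnip3l, a mitophagy receptor gene, at 0.02, and to Gja1, a gap junction gene, at 0.03. Pdcd1 was closest to Anp32e, a histone chaperone gene, and Pdia4, a disulfide isomerase gene of the endoplasmic reticulum, both at 0.02. Btla was closest to Dph2, a gene of diphthamide synthesis, and Psmb9, an immunoproteasome subunit gene, both at 0.03. Cd80 was closest to Gfer, a mitochondrial sulfhydryl oxidase gene, and Med8, a Mediator subunit gene, at 0.03 each. Cd274 was closest to Arrb2, an arrestin gene, and Rpl37rt, a retrotransposed ribosomal protein gene that may share reads with its parent gene, at 0.01 each. Cd86 was below 10 CPM and was not compared. These names describe likeness over 6 values alone.

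**Figure D4:**
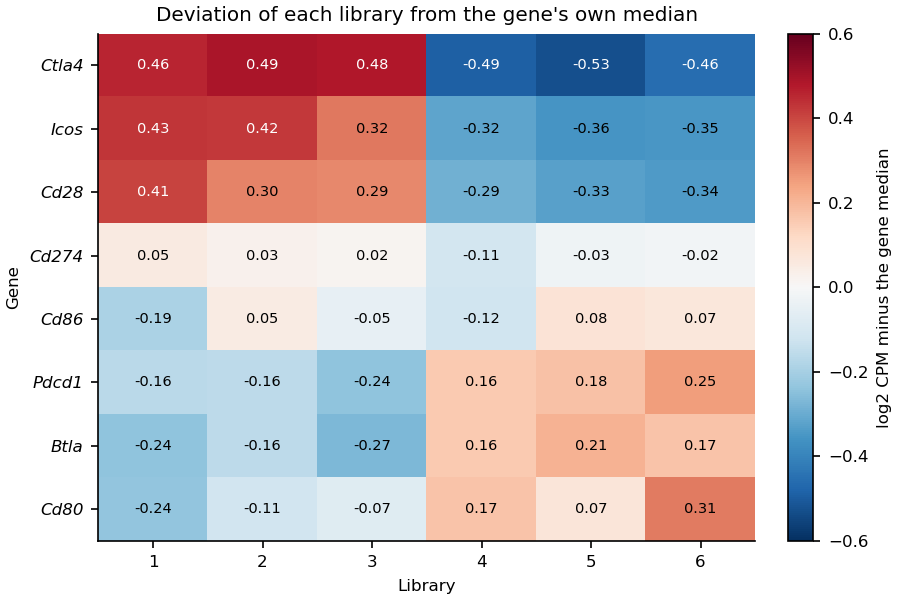
Deviation of log2 CPM from the gene's own median (colour and printed value) for the 8 genes (rows) in libraries 1 to 6 (columns). Ctla4 ran from -0.53 to 0.49, Icos and Cd28 had the same signs, Pdcd1, Btla and Cd80 the opposite signs, and Cd274 and Cd86 stayed within 0.19 of their median.

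The remaining ligands and partners of the family were read as a list of 9 genes, of which 6 reached a mean of 1 CPM. Pdcd1lg2, which encodes PD-L2, the second ligand of PD-1 and the neighbour of Cd274, had 33.2, 36.7 and 35.97 CPM in libraries 1, 2 and 3, and 46.3, 48.8 and 52.4 CPM in libraries 4, 5 and 6. It ranged 1.57-fold, with libraries 4, 5 and 6 the higher, while Cd274 beside it ranged 1.12-fold. Cd274 over Pdcd1lg2, by FPKM, accordingly lay between 2.88 in library 6 and 4.77 in library 1. Vsir, which encodes the inhibitory molecule VISTA, had 225, 219.9 and 209.9 CPM in libraries 1, 2 and 3, and 139, 146 and 153 CPM in libraries 4, 5 and 6. It was the most abundant of the 9 and ranged 1.61-fold, with libraries 1, 2 and 3 the higher, as for Ctla4.

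Tnfrsf14, which encodes HVEM, the partner of BTLA, was lowest in library 2, at 87.2 CPM, and highest in library 4, at 99.4 CPM, a range of only 1.14-fold. Tnfsf14, which encodes LIGHT, a further ligand of HVEM, had its lowest level, 27.2 CPM, in library 1 and its highest, 44.9 CPM, in library 5, a range of 1.65-fold. Btla over Tnfrsf14, by FPKM, was near 1, between 0.907 in library 3 and 1.25 in library 6. Icosl, the ligand of ICOS, was scarce, with 40 to 70 counts per library at 1.15 CPM in library 3 and 2.22 CPM in library 1, its extremes. Rgmb, which binds PD-L2, was similarly scarce, at 1.88 to 3.05 CPM, and Cd160, another HVEM receptor, had 0.116 to 0.546 CPM. Cd276 and Vtcn1 were not analysed here. Of the 6 measured genes 0 reached 2-fold and 5 reached 1.5-fold, with a median of 1.61-fold, beside 10.5% and 27.6% of all measured genes and their median of 1.29-fold. The list was chosen with earlier results of these data known, so its larger share at 1.5-fold cannot be taken as a result about these genes.

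Genes that act downstream of these receptors or control them were read from 5 further lists, against the same shares and median of all measured genes. Of 19 genes of CD28 and ICOS signalling, all measured, 0 reached 2-fold and 1 reached 1.5-fold, with a median of 1.22-fold. That gene was Malt1, the paracaspase that links CD28 and antigen receptor signals to NF-kB, with 708, 677 and 671 CPM in libraries 1, 2 and 3, and 369, 382 and 409.6 CPM in libraries 4, 5 and 6, a range of 1.92-fold. Pik3cd, the leukocyte PI3-kinase subunit and the most abundant gene of the list, ranged 1.23-fold, from 602 to 743 CPM. Among 5 genes for phosphatases that act at inhibitory receptors, 0 ranged 1.5-fold or more. Ptpn11, which encodes SHP-2, the main partner of PD-1, ranged the most, 1.31-fold, from 67.6 to 88.5 CPM. Ppp2ca, a catalytic subunit of phosphatase 2A, was the most abundant, at 254 to 304 CPM.

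CTLA-4 protein is mostly held inside the cell and cycles to the surface, and 10 of 11 genes listed for that traffic were measured. Trat1, which encodes the adaptor TRIM that carries CTLA-4 to the surface, ranged 3.46-fold, with libraries 4, 5 and 6 the higher, unlike Ctla4. It had 24.6, 26.0 and 25.4 CPM in libraries 1, 2 and 3, and 85.3, 80.7 and 76.0 CPM in libraries 4, 5 and 6. The other 9 measured genes ranged less than 1.5-fold. Among them Lrba, which keeps CTLA-4 from lysosomal breakdown, had 86.4 to 105 CPM. Arf1, a small GTPase of vesicle budding and the most abundant, had 332 to 383 CPM.

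Of 11 genes that set PD-L1 levels, all measured, 0 ranged 2-fold or more, and the median was 1.17-fold. Stat3, a cytokine-activated factor that can induce Cd274, was both the most abundant and the most variable, at 720.4 to 1186 CPM or 1.65-fold. Hif1a was the other at 1.5-fold or more, with 634 to 955 CPM or 1.51-fold. Both were higher in libraries 1, 2 and 3. Irf1, the interferon-induced activator of Cd274, lay between 181 and 191 CPM. Of 10 regulators of receptor transcripts, all measured, Tox alone ranged 2-fold or more. Tox, a factor of T cell exhaustion that sustains PD-1, had 3.67 CPM in library 2, its lowest, and 9.84 CPM in library 4, its highest, a range of 2.65-fold, with the same libraries high as for Pdcd1. Irf4, a factor induced by antigen receptor signals and the most abundant of that list, ranged 1.17-fold, from 895 to 1050.2 CPM. Foxp3, which drives Ctla4 in regulatory T cells, ranged 1.81-fold, from 7.37 to 13.4 CPM, with libraries 4, 5 and 6 the higher. Prdm1, another gene of that list, ranged 1.69-fold with libraries 1, 2 and 3 the higher, as for Ctla4. A relation of either gene to Ctla4 was not tested.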

How the data were processed

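The labels' protocols describe TRIzol RNA and VAHTS Universal V5 libraries, and build GRCm39, HTSeq, HISAT2, fastp, DESeq2 and R 3.2.0 are listed without roles in the submitters' processing notes. The annotation and strand setting were not given in the sources used here. In GENCODE M21 a pseudogene on the same strand overlaps Ctla4, an unclassified gene model on the same strand overlaps Icos, and antisense genes overlap Cd274 and Pdcd1lg2. How reads at these overlaps were assigned is not known. The authors deposited raw counts per gene and FPKM values, and the gene length that count, FPKM and library total imply was the same in every library within a relative 1.32e-08 for 9884 genes, so it is no separate evidence. All 8 genes matched a RefSeq symbol.

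Counts were scaled with TMM factors of 0.958 to 1.04 (edgeR 4.0.16, R 4.3.3). Ranges used log2 CPM with a prior count of 2 over genes averaging 1 CPM or more, in Python 3.11.15. Intervals are exact Clopper-Pearson at 95% and speak for counting error only, since reads without molecular identifiers are not independent molecules. With no groups, no test between groups was made. A Dixon ratio, the gap at an end of the 6 sorted values over their range, passed its critical value of 0.625 for 0 of the 8 genes. It looks for a lone outlying library, so it could not detect a split of the libraries into sets of equal size.

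Members and 11 lists of 95 further genes were chosen with earlier results of these data known. Named were the 8 genes, all 9 partners, the most abundant and most variable gene of each list and any ranging 2-fold. For markers of other cells the rule named the most abundant alone. The markers Cd79a, Cd22, Pax5, Ms4a1, Flt3, Xcr1, Siglech and C1qa were added after their values were seen. The nearest patterns were named too, 5 for Ctla4 and 2 for other genes of at least 10 CPM. Lrba, Irf1, Hif1a, Foxp3 and Prdm1 were also named after their values were seen. A further marker gene is not reported here. Alternatives were DESeq2 1.42.0 size factors, total counts, FPKM with a pseudocount of 0.1, a prior count of 0.5, a minimum of 5 CPM or none, and each library left out.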

Additional observations from a re-analysis of the deposited data

How the results depend on the processing

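Depth limited the scarce genes Cd86, Icosl and Cd160. Plain total counts moved the median of the measured genes between libraries by up to 0.14 on the log2 scale, and FPKM, which uses the same totals, by 0.14. With TMM the shift was 0.02. TMM is built to keep that shift small, so the values do not decide between the scalings. The Ctla4 range of 2.02-fold was 1.86-fold with total counts or FPKM, and the number of family genes at 2-fold or more was then 0, while that at 1.5-fold or more, an alternative added after seeing the data, was 6 in place of 3. Leaving out each library gave Ctla4 ranges between 1.97-fold and 2.05-fold and 0 or 1 family genes at 2-fold, with 0 without library 5, and 3 at 1.5-fold throughout. For the other 7 genes the range left its counting interval in 11 of 70 alternatives. Across all genes the number at 2-fold or more was 450 with a minimum mean of 5 CPM, 6870 without a minimum, and between 1039 and 1088 when a library was left out. The range of the Ctla4 to Cd28 ratio stayed at 1.31-fold in its 8 alternatives. These could move it little, since the count ratio is the FPKM ratio times a constant and leaving out a library does not change the ratios of the others. With total counts or FPKM the highest library became 5 for Cd274 and 3 for Ctla4, and the lowest became 6 for Icos. Under each of the 5 settings, 3 family genes kept libraries 1, 2 and 3 highest and 3 kept libraries 4, 5 and 6 highest. The share of all measured genes with such an order is not given here, so these counts do not set the family apart. By the largest gap between sorted values, 39.5% of 8371 genes averaging 10 CPM or more split the libraries in this way. No paired analysis was possible because the labels put no library in a group.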

Other observations

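The values of several genes fell into separate clusters of libraries that the labels do not explain. When the 6 log2 CPM values of a gene were sorted, the largest gap took 90.1% of the whole range for Ctla4, 81.2% for Icos and 78.1% for Cd28. It took 66.2% for Btla and 63.2% for Pdcd1, and in each of these genes it lay between libraries 1, 2 and 3 and libraries 4, 5 and 6. For Cd80 it lay there too but took 26.3%, beside an end gap of 0.260 of the range, so its values were graded and not clustered. For Ctla4, libraries 1, 2 and 3 deviated from the gene's median by 0.46, 0.49 and 0.48 log2 units and libraries 4, 5 and 6 by -0.49, -0.53 and -0.46. For Cd274 and Cd86 the largest gap lay elsewhere. Of 8371 genes averaging 10 CPM or more, the largest gap separated the same libraries in 3309, or 39.5%. What distinguishes the libraries was not tested, since no label gives it.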
